A study of Homo sapiens with 6 samples.

Results

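Type I interferon-stimulated genes are a set of 40 genes picked by name: IFI6, IFI27, IFI35, IFI44, IFI44L, IFIT1, IFIT2, IFIT3, IFIT5, IFITM1, IFITM2, IFITM3, ISG15, ISG20, MX1, MX2, OAS1, OAS2, OAS3, OASL, IRF9, STAT2, BST2, USP18, RSAD2, XAF1, HERC5, HERC6, SAMD9, CXCL10, CXCL11, PARP12, TRIM22, TRIM21, LAMP3, UBE2L6, SP110, SP100, LGALS3BP and PLSCR1. Every probe set that the array annotation gives exactly 1 symbol, and that symbol among these, was taken, which gave 54 probe sets for 39 genes out of 11963 genes on the array. STAT2 was not analysed here, and 2 probe sets that IRF9 and the IFITM genes share with another gene were left out. Signals were measured in A-498, an established human renal cell carcinoma line, on 3 arrays of cultures kept for 120 h with 1000 µM zebularine, a cytidine analogue that inhibits DNA methyltransferases, and on 3 arrays of untreated cultures. Both groups grew as monolayers in the same medium with fetal calf serum, and medium was changed and cells were split along the way. Each of 3 numbered biological replicates, called experiments here, gave 1 zebularine array and 1 untreated array. The comparison asks how expression changes after the inhibitor. All arrays come from 1 cell line, so the spread between them is that of its cultures.

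When a cell senses viral nucleic acid it secretes type I interferons, which bind the receptor chains IFNAR1 and IFNAR2 on the same or neighbouring cells. The kinases JAK1 and TYK2 then pass the signal to STAT2, which joins IRF9 in the nucleus at the interferon-stimulated response element in the promoters of the genes described here. Their products degrade viral RNA, block viral translation, entry and release, tag proteins with ISG15, or dampen the signal again. Inhibitors of DNA methyltransferases are known to induce such genes in several other tumour cell types.

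Array medians ran from 127 to 134 signal units in zebularine cultures and from 118 to 141 in untreated cultures. Both arrays of experiment 3 had dim spike-in controls, with medians over 18 probe sets of 1457 on the zebularine array and 1239 on the untreated array, against 3551 to 4103 on the other 4. The ratio of 3′ to 5′ signal of ACTB, a measure of how intact the labelled RNA was, was 5.25, 2.06 and 1.49 on the zebularine arrays of experiments 1, 2 and 3, and 3.10, 2.38 and 1.71 on the untreated arrays. Keratin genes KRT8 and KRT18 and vimentin (VIM) were bright on all arrays, with KRT18 at 12161 to 16546 in zebularine cultures and 16347 to 21526 in untreated cultures, and the renal transcription factor PAX8 stood at 636 to 1094 in zebularine cultures and 1034 to 1237 in untreated cultures. CDH6, a cadherin of the proximal tubule, was lower without overlap, at 175, 103 and 209 in zebularine cultures against 1407, 2209 and 584 in untreated cultures (limma, adjusted p = 0.0206). KRT19, another keratin, was higher in each experiment, at 210, 275 and 385 in zebularine cultures against 34.5, 231 and 77.9 in untreated cultures, and was not called (limma, adjusted p = 0.251, blocked adjusted p = 0.0591). Of the epithelial markers, EPCAM and the kidney cadherin CDH16 did not reach the level needed for a test. None of the 9 immune or the 3 endothelial markers on the array reached that level either. The summed signal was 309 to 379 in zebularine cultures and 207 to 394 in untreated cultures for the immune markers, and no single one was above 132 on any array.

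Testing required a signal of 78.6 or more, the 40th percentile over all arrays, on 3 or more of them, and a gene is represented by its brightest tested probe set. Of the 39 genes 34 were tested. The other 5, RSAD2, MX2, CXCL10, CXCL11 and LAMP3, were too dim. IFIT2 passed through the zebularine arrays alone, so the counts below are of the tested genes and not of the whole set. Differences are zebularine minus untreated on the scale of log2(signal + 16.34), which understates the change of dim genes. The test is limma over all 13545 tested probe sets with Benjamini-Hochberg adjustment, and a gene was called at an adjusted p under 0.05. The experiment numbers paired the arrays, so values with the experiment as a block ("blocked") are given where they change a call or come near to it.

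Most interferon-stimulated genes had a higher mean signal after zebularine. The margin was wide in experiment 3, while experiments 1 and 2 each held both rises and falls. Genes higher in experiments 1, 2 and 3 numbered 21, 22 and 33 of the 34 tested. Differences ran from -1.38 to 1.84 in experiment 1 and from -1.93 to 1.515 in experiment 2. Of 34 tested genes 29 had a higher mean in zebularine cultures, or 85.3%, against 49.3% of all 7938 tested genes. Their median difference was 0.73 on the log2 scale, against -0.01 over all tested genes. Within experiments 1, 2 and 3 the median over the 34 genes was 0.28, 0.18 and 1.95, while the median over all tested genes was -0.02, 0.00 and 0.00. In bulk RNA a change in a part of the cells and a change in every cell cannot be told apart.

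**Figure D1:**
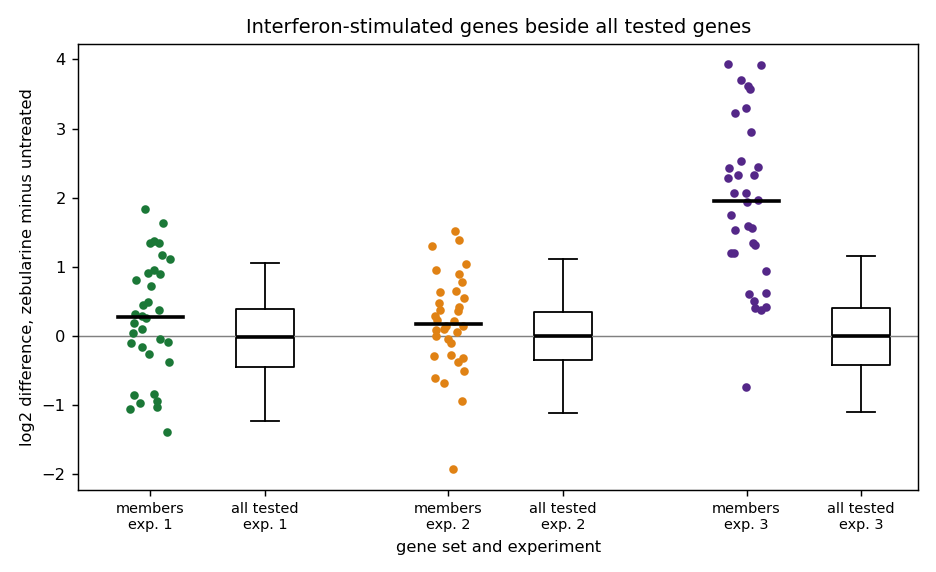
Log2 difference of signal, zebularine minus untreated, in each experiment for the 34 tested interferon-stimulated genes (points, with a bar at their median) and for all 7938 tested genes (box from the lower to the upper quartile, whiskers from the 5th to the 95th percentile). In experiment 3 the members' median is 1.95, and in experiments 1 and 2 it is 0.28 and 0.18.

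The zebularine array of experiment 3 stood apart for these genes. The median signal over the 34 genes was 353, 517 and 1348 on the zebularine arrays of experiments 1, 2 and 3, against 255, 397 and 287 on the untreated arrays. Over all tested genes the same medians lay between 415 and 472 on every array. For 31 of the 34 genes the zebularine array of experiment 3 was the highest of all 6, which held for 17.2% of all tested genes. It was higher than its untreated partner for 33 genes (49.7% of all tested genes). For 26 genes it was more than 1 above its untreated partner on the log2 scale used here (7.00% of all tested genes). The same held for 7 genes in experiment 1 (5.86%) and 4 in experiment 2 (6.50%). The spread between zebularine arrays, from lowest to highest, had a median of 1.84 on the log2 scale over the 34 genes, and that between untreated arrays 0.74. Both medians were 0.64 over all tested genes. The untreated array of experiment 3 had the dimmer spike-ins of the pair. Its median over the 34 genes lay between those of the other untreated arrays. The part of the dim spike-in signal and the low ACTB ratio of experiment 3 in these differences was not tested, and the design does not separate them.

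Called genes were few without the block. At an adjusted p under 0.05, 1 of the 34 genes rose (0.353% of all tested genes) and 0 fell (0.290%), while at an unadjusted p under 0.05 limma had 15 above and 1 below (6.25% and 6.84% of all tested genes). With the experiment as a block 9 rose (2.17% of all tested genes) and 1 fell (2.28%). Those that rose were SAMD9, OASL, ISG15, XAF1, IFIT1, IFI27, OAS2, IFIT3 and SP110, and LGALS3BP fell. In 9 genes all 3 zebularine arrays lay above all 3 untreated arrays (9.32% of all tested genes), and in 1 gene below (8.83%). In 17 genes the zebularine array was higher in each of the 3 experiments (21.5%), and in 1 gene lower in each (22.0%). IFIT2 is among the 9 and the 17 through the filter, which it passed on its zebularine arrays alone.

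The calls rested on the experiments unequally. Without experiment 3, limma with the block called 3 of the 34 genes: SAMD9 and OASL rose (1.31% of all tested genes) and IFI44L fell (1.34%). In the pairs of experiments 1 and 2 alone 17 genes were higher in both (29.0% of all tested genes) and 8 were lower in both (30.3%). Without experiment 1 it called OAS2, OASL and SAMD9, which rose (0.794% of all tested genes), and 0 fell (0.693%). Without experiment 2 it called 16 genes, of which 15 rose (3.45%) and 1 fell (4.66%). These fits use 2 pairs each, and the 2 called in all of them were SAMD9 and OASL.

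**Figure D2:**
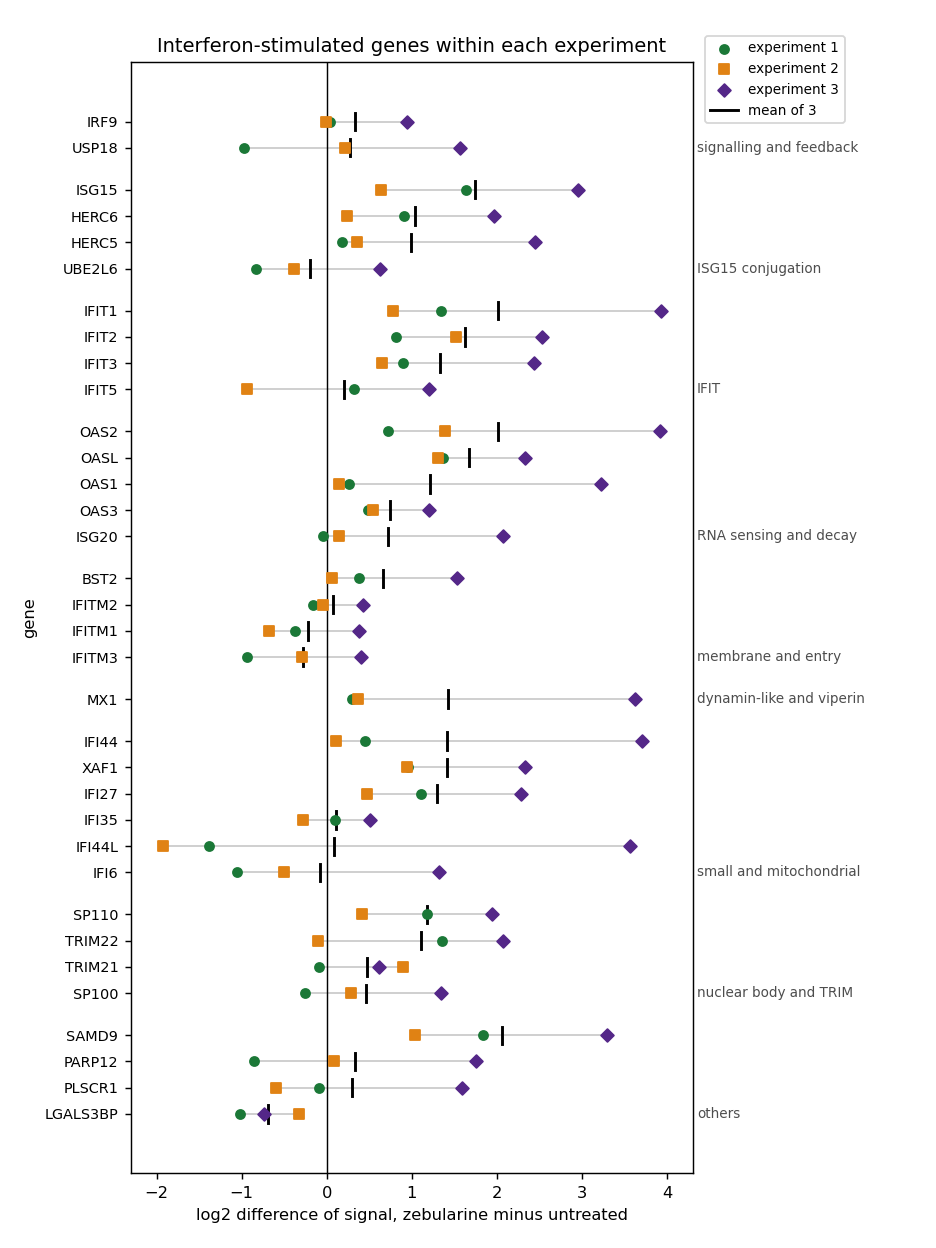
Log2 difference of signal, zebularine minus untreated, within each experiment for the 34 tested genes, grouped by role, with the mean of the 3 experiments as a vertical tick. The difference of experiment 3 is the largest for 32 of the 34 genes, and 17 genes are above 0 in all 3 experiments.

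SAMD9 encodes an antiviral protein that halts translation, and it was the 1 gene called without the block. Its signal was 470, 603 and 1185 on the zebularine arrays of experiments 1, 2 and 3, against 120, 286 and 106 on the untreated arrays. All 3 zebularine arrays were above all 3 untreated arrays, and the rise was seen in each experiment at 1.84, 1.04 and 3.30 on the log2 scale. The mean rise was 2.06 ± 0.41 (standard error; limma, adjusted p = 0.0475, blocked adjusted p = 0.0103). The unblocked call was lost on leaving out zebularine array 2 (limma, adjusted p = 0.219), zebularine array 3 (0.143), untreated array 1 (0.132) or untreated array 3 (0.185), at rises of 2.16, 1.68, 1.89 and 1.81.

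Among the genes that start and restrain the response, IRF9 is the DNA-binding partner of STAT2, and USP18 removes ISG15 from proteins and blocks the receptor. IRF9 stood at 309, 334 and 580.2 in zebularine cultures, against 300.3, 335 and 293 in untreated cultures. Its difference was 0.33 ± 0.30 (limma, adjusted p = 0.7), made up of 0.04, 0.00 and 0.95 in experiments 1, 2 and 3. USP18 stood at 91.1, 142 and 612 in zebularine cultures, against 194, 119 and 196 in untreated cultures. It was lower on the zebularine array of experiment 1 and higher in experiment 3, with a mean difference of 0.27 ± 0.54 (limma, adjusted p = 0.878).

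ISG15, a ubiquitin-like protein that is attached to other proteins, is conjugated by the E2 enzyme UBE2L6 and the ligase HERC5, and HERC6 is a relative of HERC5. ISG15 signals were 537, 879 and 3395 on the zebularine arrays of experiments 1, 2 and 3, against 161, 558 and 425 on the untreated arrays. Each zebularine array was above its own untreated partner, but the groups overlapped, since zebularine array 1 was below untreated array 2. The mean rise was 1.74 ± 0.57 (limma, adjusted p = 0.237, blocked adjusted p = 0.018). HERC5 stood at 288, 485 and 1506 in zebularine cultures, against 252, 374 and 264 in untreated cultures, and HERC6 at 246, 239 and 981 in zebularine cultures, against 123, 200.4 and 239 in untreated cultures. Both were higher in each experiment, and neither was called (limma, adjusted p = 0.403 and 0.392, blocked adjusted p = 0.153 and 0.0964). UBE2L6, in contrast, was lower in experiments 1 and 2, at 401 and 597 in zebularine cultures against 728 and 781 in untreated cultures, and higher in experiment 3, at 1381 in the zebularine culture against 892 in the untreated one. Its mean difference was -0.20 ± 0.37 (limma, adjusted p = 0.871).

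The IFIT proteins bind viral RNA that lacks the marks of the cell's own messages. At the probe set that represents each gene, 3 of the 4 were higher in every experiment. IFIT1 stood at 229, 441 and 3624 on the zebularine arrays, against 80.3, 249.7 and 223 on the untreated arrays. Its rise of 2.02 ± 0.75 (limma, adjusted p = 0.285, blocked adjusted p = 0.0315) was largest in experiment 3, at 3.93 against 1.34 and 0.78 in experiments 1 and 2. IFIT2 stood at 103, 191 and 389 in zebularine cultures, against 51.5, 56.3 and 53.8 in untreated cultures. Its difference was 1.62 ± 0.49 (limma, adjusted p = 0.197, blocked adjusted p = 0.0642). IFIT2 passed the filter through the zebularine arrays alone. Its lack of overlap and its sign in each experiment were thus fixed by the filter, and its p-values are no support for a rise. IFIT3, a partner of IFIT1, stood at 243, 509.6 and 1315 in zebularine cultures, against 123, 318 and 231 in untreated cultures. It rose by 1.33 ± 0.50 (limma, adjusted p = 0.297, blocked adjusted p = 0.0434). IFIT5 differed by 0.20 ± 0.51, with differences of 0.33, -0.94 and 1.21 in experiments 1, 2 and 3. A second tested IFIT5 probe set gave 0.22, 0.02 and 0.62, so it was not lower in experiment 2.

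The 2'-5'-oligoadenylate synthetases OAS1, OAS2 and OAS3 sense double-stranded RNA and make the messenger that activates RNase L, and OASL is a relative without that activity. All 4, and the exonuclease gene ISG20, had a higher mean in zebularine cultures. OASL stood at 549, 986 and 2618 in zebularine cultures against 202, 388 and 507 in untreated cultures, with no overlap and rises of 1.37, 1.31 and 2.33 in experiments 1, 2 and 3. The mean rise was 1.67 ± 0.48 (limma, adjusted p = 0.172, blocked adjusted p = 0.00553). A second OASL probe set rose by 1.73 (limma, adjusted p = 0.0119 with the block). OAS2 stood at 256, 242 and 1550.1 in zebularine cultures, against 149, 81.8 and 87.8 in untreated cultures, again without overlap. It rose by 2.01 ± 0.57 (limma, adjusted p = 0.167, blocked adjusted p = 0.0366).

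OAS3 also did not overlap, at 656, 669 and 1462 in zebularine cultures against 463, 453 and 626 in untreated cultures, but its difference of 0.75 ± 0.33 was not called (limma, adjusted p = 0.372, blocked adjusted p = 0.0991). OAS1 was near its untreated level in experiments 1 and 2, at 258 and 205 in zebularine cultures against 212 and 184 in untreated cultures, and in experiment 3 stood at 1718 in the zebularine culture against 169.5 in the untreated one. ISG20 had the same shape, with differences of -0.04, 0.14 and 2.07. A second tested ISG20 probe set gave -0.425, -0.005 and 4.08, the last against a dim untreated signal of 9.1. A second tested OAS1 probe set gave -0.22, 0.41 and 3.05, so it was lower in experiment 1. Neither gene was called at its brightest probe set (limma, adjusted p = 0.423 for OAS1 and 0.483 for ISG20).

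MX1 is a dynamin-like GTPase that traps viral nucleoproteins, and its values show how uneven the experiments were. It stood at 538, 581 and 5237 on the zebularine arrays, against 436, 445 and 411 on the untreated arrays. The untreated arrays were close together at 430.5 ± 17.2 (SD, n = 3), each zebularine array was above all of them, and the excess was 0.30, 0.37 and 3.62 on the log2 scale in experiments 1, 2 and 3. The mean difference of 1.43 ± 0.64 was not called (limma, adjusted p = 0.384, blocked adjusted p = 0.126), and it was 0.37 without zebularine array 3. RSAD2, which encodes viperin, an enzyme that makes a chain-terminating nucleotide, was too dim for the test. It stood at 64.5, 123 and 512 in zebularine cultures, against 9.6, 37.9 and 47.9 in untreated cultures, with no overlap. MX2 was at 14.9 to 75.7 in zebularine cultures and 6.6 to 91.2 in untreated cultures, so the groups overlapped.

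**Figure D3:**
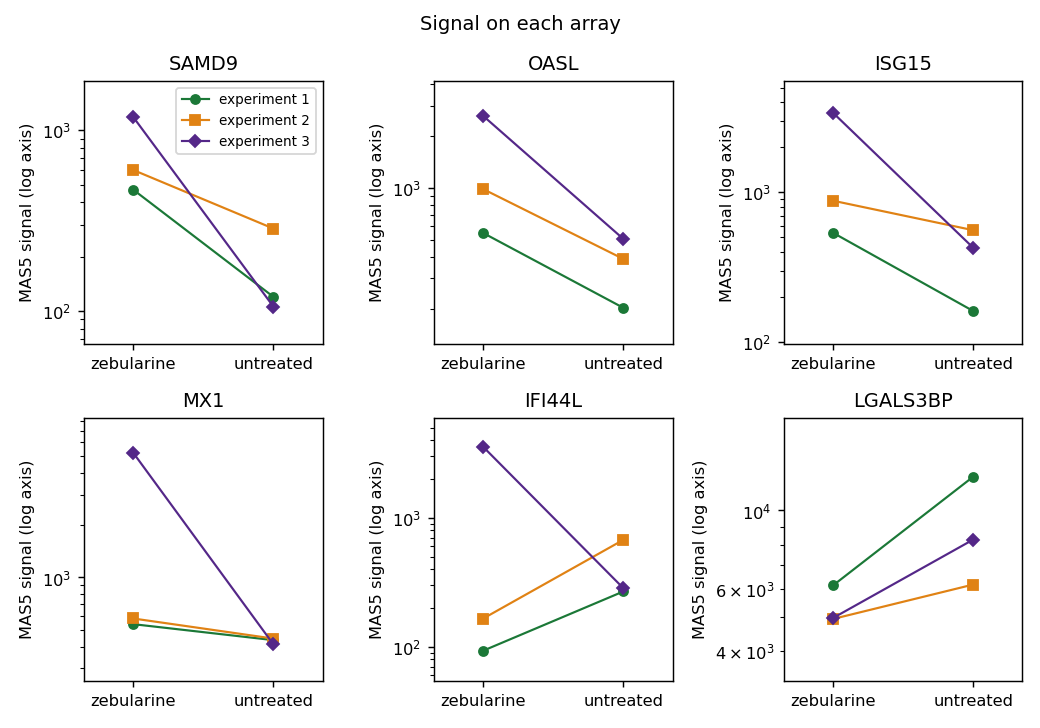
MAS5 signal on a log axis for 6 genes, with a line joining the zebularine and the untreated array of each experiment. The lines of SAMD9, OASL, ISG15 and MX1 all fall towards the untreated array, those of LGALS3BP all slope upward to it, and those of IFI44L cross, with the zebularine array of experiment 3 at 3545 and those of experiments 1 and 2 at 93.1 and 165.

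IFI44L and IFI44 are neighbours on chromosome 1 and are both counted among the most interferon-responsive genes, and they differed from each other in experiments 1 and 2. IFI44L was lower on the zebularine array there, at 93.1 and 165 against 268 and 674 on the untreated arrays, and higher in experiment 3, at 3545 on the zebularine array against 284 on the untreated array. Its differences of -1.38, -1.93 and 3.57 left a mean of 0.09 ± 0.94 (limma, adjusted p = 0.983). On experiments 1 and 2 alone it fell by 1.65 ± 0.38 (limma with the block, adjusted p = 0.00715). In the unblocked fit lacking zebularine array 3 alone, its difference of -1.46 ± 0.44 was not called (limma, adjusted p = 0.234). IFI44 stood at 331, 537 and 3495 in zebularine cultures, against 239, 498.3 and 253 in untreated cultures, with differences of 0.45, 0.10 and 3.70. Its second probe set, which was too dim for the test, gave 1.10, 0.03 and 3.85. IFI44L was singled out after its values were seen.

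In all, 7 of the 34 genes were lower in both of experiments 1 and 2 and higher in experiment 3, which held for 8.30% of all tested genes. These were IFI44L, IFI6, IFITM1, IFITM2, IFITM3, PLSCR1 and UBE2L6. Of them 3, IFI44L, IFI6 and PLSCR1, were more than 1 higher on the log2 scale in experiment 3 (0.806% of all tested genes). IFI6, a mitochondrial and endoplasmic reticulum protein that restrains cell death, stood at 33.4, 136 and 239 in zebularine cultures, against 86.6, 199 and 85.7 in untreated cultures. PLSCR1, a membrane protein that hinders viral entry, stood at 1311, 1139 and 4384 in zebularine cultures, against 1397, 1735 and 1449.5 in untreated cultures. Its second probe set gave differences of -0.34, -0.27 and 1.90.

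Of the other genes with small or mitochondrial products, IFI27 and XAF1 rose with the block. IFI27 stood at 1014, 1313 and 2918 in zebularine cultures, against 461, 939 and 585 in untreated cultures, without overlap, and rose by 1.29 ± 0.38 (limma, adjusted p = 0.185, blocked adjusted p = 0.0327). XAF1, an antagonist of the apoptosis inhibitor XIAP, stood at 377, 319.6 and 589.7 in zebularine cultures, against 186, 158 and 104 in untreated cultures, also without overlap. Its rises of 0.96, 0.95 and 2.33 gave a mean of 1.41 ± 0.33 (limma, adjusted p = 0.0862, blocked adjusted p = 0.0303). IFI35 differed by 0.11 ± 0.29.

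The 4 membrane proteins had a median difference of -0.075, the nearest to 0 of the role groups, and none was called. IFITM1, IFITM2 and IFITM3, which stop viruses from fusing with the cell, have closely related sequences, and the probe sets of IFITM2 and IFITM3 are of a type that can bind related transcripts. IFITM3 was bright, at 1866, 2483 and 3552 in zebularine cultures against 3590.3, 3048 and 2677 in untreated cultures. It was lower in experiments 1 and 2 and higher in experiment 3, with a mean difference of -0.28 ± 0.28 (limma, adjusted p = 0.726). It reached 0.06 without experiment 1. IFITM1 and IFITM2 had the same order of signs, with mean differences of -0.22 ± 0.49 and 0.07 ± 0.26. BST2, the tetherin that holds budding viruses on the cell, stood at 949, 1098 and 1839 in zebularine cultures, against 728, 1052 and 624 in untreated cultures. It was higher in each experiment and not called (limma, adjusted p = 0.401).

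SP100 and SP110 are proteins of nuclear bodies, TRIM21 is a cytosolic antibody receptor, and TRIM22 is a ubiquitin ligase against viruses. SP110 stood at 599.5, 550.2 and 1087 in zebularine cultures, against 257, 409 and 272 in untreated cultures, without overlap, and its probe set may cross-react with similar transcripts. It rose by 1.18 ± 0.32 (limma, adjusted p = 0.137, blocked adjusted p = 0.0418), and 2 other probe sets gave 0.91 and 0.96, neither called (limma, blocked adjusted p = 0.0811 and 0.0921). A further SP110 probe set passed the filter through the zebularine arrays alone, at 82.5, 82.5 and 433 in zebularine cultures against 76.0, 20.3 and 33.8 in untreated cultures, and was not called. TRIM22, the brightest of the group, stood at 814, 759 and 1946 in zebularine cultures, against 309.8, 818 and 451 in untreated cultures. It was not higher in experiment 2, and its difference of 1.10 ± 0.40 was not called (limma, adjusted p = 0.276, blocked adjusted p = 0.0888). SP100 had a mean difference of 0.46 ± 0.31 at its brightest probe set and of 0.12 to 1.10 over 5 probe sets, 1 of them too dim for the test. TRIM21 differed by 0.47 ± 0.38 and was 1 of the 2 genes whose largest difference was not in experiment 3. Over the 10 genes with several probe sets, 25 in all, none had mean differences of opposite sign.

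LGALS3BP, a secreted glycoprotein that binds galectins, went the other way. It was the brightest gene of the set, at 6144, 4939 and 4970.5 in zebularine cultures, against 12466, 6179 and 8279.6 in untreated cultures. Every zebularine array was below every untreated array, and it fell by 0.69 ± 0.28 (limma, adjusted p = 0.33, blocked adjusted p = 0.0372). It was the 1 gene of 34 that was lower in experiment 3. PARP12, an antiviral ADP-ribosyltransferase, had differences of -0.85, 0.09 and 1.76 and was not called (limma, adjusted p = 0.798).

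The chemokine genes CXCL10 and CXCL11, whose products attract T cells, were too dim for the test in this line. CXCL10 stood at 66.1, 7.5 and 148 in zebularine cultures, against 4.1, 45.6 and 25.3 in untreated cultures. CXCL11 stood at 26.0, 15.5 and 128 in zebularine cultures at its brighter probe set, against 15.5, 3.7 and 32.8 in untreated cultures. Both passed 100 units on the zebularine array of experiment 3 and on no other array. LAMP3, a lysosomal membrane protein of dendritic cells, stood at 5.0 to 82.5 in zebularine cultures and 2.8 to 35.8 in untreated cultures.

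A list of 40 genes of interferons, their receptors, kinases, transcription factors and inhibitors had 35 on the array and 22 tested. Of these 6 were higher, or 27.3%, against 49.3% of all tested genes. The median difference of the 22 was -0.07, with -0.12, -0.05 and -0.04 in experiments 1, 2 and 3. In either fit limma called 0. At an unadjusted p under 0.05 limma had 1 above and 1 below (6.25% and 6.84% of all tested genes). Of 17 interferon genes 14 were on the array, with signals from 1.6 to 114 and a median of 17.0, and only IFNA17 reached the level for a test. IFNB1 stood at 4.2, 11.3 and 96.7 in zebularine cultures, against 85.8, 62.6 and 4.3 in untreated cultures, which overlapped. IFNAR1 and IFNAR2 differed by -0.51 ± 0.41 and -0.07 ± 0.24, and TYK2 by -0.20 ± 0.27. JAK1 stood at 2969, 2122 and 3062 in zebularine cultures, against 3612, 4223 and 4621 in untreated cultures, without overlap, but its difference of -0.62 ± 0.25 was not called (limma, adjusted p = 0.322, blocked adjusted p = 0.085). JAK2, a kinase of other cytokine receptors, was chosen after its values were seen and went the other way, at 153, 125 and 227 in zebularine cultures against 113, 32.6 and 60.6 in untreated cultures. Its groups did not overlap either, and its difference of 1.19 ± 0.48 was not called (limma, adjusted p = 0.33, blocked adjusted p = 0.15).

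A second list of 36 interferon-induced genes outside the set had 23 on the array and 21 tested, with a median of 0.35. Of these 16 were higher, or 76.2%, against 49.3% of all tested genes. The list's medians in experiments 1, 2 and 3 were 0.26, -0.07 and 0.99, so it too was highest in experiment 3. Without the block limma called 0. At an unadjusted p under 0.05 limma had 6 above and 0 below (6.25% and 6.84% of all tested genes). With the block 3 rose (2.17% of all tested genes) and 0 fell (2.28%). Those that rose were IFIH1, the RNA sensor MDA5, the helicase gene DDX60 and ZC3HAV1, the zinc finger antiviral protein. Their differences were 1.47 ± 0.44, 1.18 ± 0.37 and 1.09 ± 0.34 (limma, blocked adjusted p = 0.0302, 0.0482 and 0.0499). IFIH1 stood at 386, 410.3 and 1511 in zebularine cultures, against 181, 233 and 236 in untreated cultures. TNFSF10, the death ligand TRAIL, was singled out after its values were seen. It stood at 265, 216 and 1575 in zebularine cultures, against 948, 991 and 637 in untreated cultures, with the same order of signs as IFI44L, and on experiments 1 and 2 alone it fell by 1.94 ± 0.33 (limma with the block, adjusted p = 0.000124). The unblocked fit lacking zebularine array 3 gave -1.75 ± 0.32, which was not called (limma, adjusted p = 0.0647).

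Promoter windows of 250 bases before to 50 after the transcription start were in the RefSeq table (GRCh38.p14) for 32 of the 40 genes, in 43 windows. They were searched on both strands, overlaps counted, for the core of the interferon-stimulated response element, written here as GAAA, any 2 bases and GAAA. Of the 32 genes 22 held it, or 68.8%, against 4.38% of all 27305 genes with such windows and 4.14% of the 6593 tested ones. The longer form, with CT after the core, was in 12 of the 32 genes, against 0.322% of all genes. A match is a run of letters and no evidence of binding. The 20 tested genes with the core had a median difference of 0.69 and the 8 without it 0.75, and their ranges overlapped, from -0.69 to 2.06 with the core and from -0.20 to 1.41 without it. Among those 8, OAS1, XAF1, SP110 and IFI35 have a window with 1 base between the GAAA runs, which the search missed. The comparison thus cannot separate genes with the element from genes without it. IFIT2, IFITM2, LAMP3, MX2, OAS2, OASL, TRIM22 and USP18 had no entry.

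**Figure D4:**
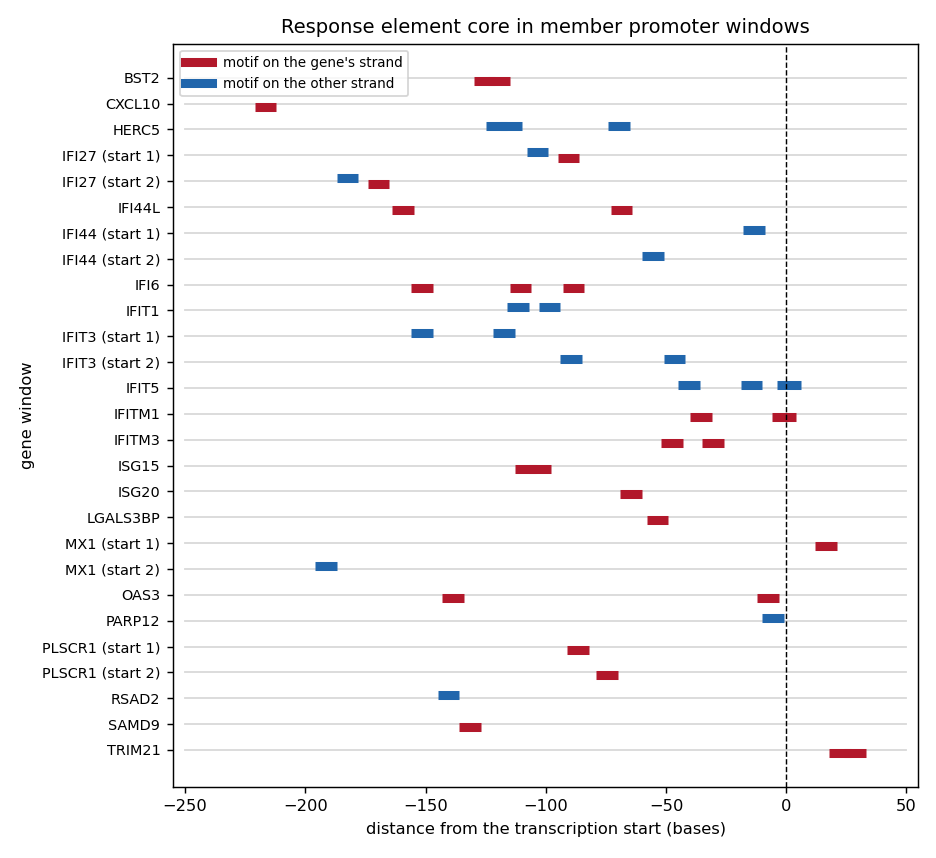
Position of the interferon-stimulated response element core in the 27 member windows that hold it, as distance in bases from the transcription start, on the gene's strand or on the other strand. Genes with several starts have a line for each start with a match, and adjoining bars are overlapping matches.

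The windows of 6 genes are printed to show the core, in capitals, beside the values above. SAMD9, ISG15 and IFIT1 rose, LGALS3BP fell, and IFI44L went in opposite directions between experiments. XAF1 rose, and its windows hold no core in the form searched. The window of its other start, not printed, holds GAAACGAAA, with 1 base between the GAAA runs, which the search did not cover. Sequences are from RefSeq, GRCh38.p14, 5′ to 3′ on the strand of the gene. They cover chr7:93117930-93118229 (minus strand) for SAMD9, chr1:1013247-1013546 (plus) for ISG15, chr10:89392373-89392672 (plus) for IFIT1, chr17:78979874-78980173 (minus) for LGALS3BP, chr1:78620198-78620497 (plus) for IFI44L and chr17:6755197-6755496 (plus) for 1 of the starts of XAF1.
SAMD9: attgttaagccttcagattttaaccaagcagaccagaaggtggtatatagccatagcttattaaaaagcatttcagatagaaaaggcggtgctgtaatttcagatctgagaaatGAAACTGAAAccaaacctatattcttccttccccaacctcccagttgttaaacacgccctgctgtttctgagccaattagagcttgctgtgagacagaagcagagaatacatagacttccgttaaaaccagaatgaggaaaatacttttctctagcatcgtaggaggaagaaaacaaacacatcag
ISG15: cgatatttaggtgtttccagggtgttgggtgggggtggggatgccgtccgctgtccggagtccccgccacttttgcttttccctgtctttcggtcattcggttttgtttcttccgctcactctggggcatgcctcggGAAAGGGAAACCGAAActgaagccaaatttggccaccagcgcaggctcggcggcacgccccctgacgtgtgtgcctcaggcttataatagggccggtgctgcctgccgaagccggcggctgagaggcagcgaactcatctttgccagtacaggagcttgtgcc
IFIT1: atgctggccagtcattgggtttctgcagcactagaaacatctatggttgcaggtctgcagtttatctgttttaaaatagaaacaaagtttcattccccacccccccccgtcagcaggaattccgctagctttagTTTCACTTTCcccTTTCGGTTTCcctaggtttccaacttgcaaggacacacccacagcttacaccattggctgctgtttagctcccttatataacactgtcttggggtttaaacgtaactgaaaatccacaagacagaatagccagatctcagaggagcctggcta
LGALS3BP: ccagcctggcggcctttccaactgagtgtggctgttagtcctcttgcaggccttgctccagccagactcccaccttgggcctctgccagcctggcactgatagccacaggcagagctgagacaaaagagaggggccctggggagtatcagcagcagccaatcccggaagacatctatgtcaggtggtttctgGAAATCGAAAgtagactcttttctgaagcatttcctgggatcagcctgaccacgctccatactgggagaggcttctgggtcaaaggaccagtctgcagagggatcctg
IFI44L: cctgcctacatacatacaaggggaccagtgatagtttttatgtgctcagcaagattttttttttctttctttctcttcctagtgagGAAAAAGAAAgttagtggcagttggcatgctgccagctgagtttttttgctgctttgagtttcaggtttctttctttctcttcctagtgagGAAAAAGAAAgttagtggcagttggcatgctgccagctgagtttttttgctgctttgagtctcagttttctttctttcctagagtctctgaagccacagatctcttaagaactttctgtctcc
XAF1: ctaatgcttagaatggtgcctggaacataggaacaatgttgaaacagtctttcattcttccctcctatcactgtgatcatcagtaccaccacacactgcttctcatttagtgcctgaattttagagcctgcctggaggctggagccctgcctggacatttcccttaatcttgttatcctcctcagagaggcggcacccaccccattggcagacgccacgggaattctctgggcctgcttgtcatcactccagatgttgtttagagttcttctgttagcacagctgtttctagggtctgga
SAMD9 holds 1 core, from base -136 to -127, in the form GAAACTGAAA. ISG15 holds 2 that overlap, between -113 and -98, and IFIT1 holds 2 on the other strand, between -116 and -94, which read TTTC on the strand printed. LGALS3BP, which fell, also holds 1, from -58 to -49. The 2 cores of IFI44L have the same letters, GAAAAAGAAA, and lie within a stretch of 85 bases that occurs again 91 bases further on. IFI44L, IFI44 and CXCL11 had 0 CpG sites in their windows, the sites that DNA methyltransferases act on. The median was 7 over the 43 windows of the set and 14 over all 35116 windows. ISG15 had 20, and 1 window of RSAD2 had 45. No link of these counts to the differences was tested.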

How the data were processed

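RNA of 6 A-498 cultures was measured on Affymetrix arrays. The deposited values are probe set intensities on a linear scale, made by the authors with MAS5, per the submitters' processing notes, which name no version or settings. The trimmed mean signal was 499.8 on every array, and no further normalization was applied. The platform annotation gave 1 symbol to 19070 of 22277 probe sets; 62 controls were left out. After the filter, 13545 probe sets went into two-sided tests with limma 3.58.1 (R 4.3.3, eBayes with its trend option), without and with the experiment as a block. A gene is represented by its tested probe set of highest mean signal, which left 7938 genes. Both arrays of an experiment carry the same biological replicate number in the labels, and their deviations from the group means correlated at 0.323, 0.21 and 0.272. Between any 2 arrays, at most 0.198% of probe sets had exactly the same deposited signal, with no tolerance. The script was tested on simulated data. Figures used matplotlib 3.10.9.

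Members and lists were chosen with earlier results of these data known. Full values are given for members called in either fit and the brightest of each role. Others are given by counts or were chosen after their values were seen. The number of arrays limits precision, and p-values reflect the spread among cultures of 1 line. Gene names were matched by Entrez number to RefSeq, which also gave chromosomes and promoter windows.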

Additional observations from a re-analysis of the deposited data

How the results depend on the processing

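The count of members called, 1 in limma with all arrays and no block, was 10 with the experiment as a block. It was 0 with a pseudocount of 8.17, without the filter, after quantile normalization and without the mean-variance trend (limma, 16, 17, 15 and 10 members at an unadjusted p under 0.05). Over all genes these 4 fits had 1029, 1282, 1069 and 889 at that level. They covered 34 members and 7938 genes, or 39 members and 11963 genes without the filter. The count of members called ran from 0 to 16 on leaving out 1 array or 1 experiment. It was 0 lacking zebularine array 2, zebularine array 3, untreated array 1 or untreated array 3, and 2 lacking zebularine array 1. It was 3, 16 and 3 with the block lacking experiment 1, 2 and 3. Over all tested genes those blocked fits called 0.794%, 3.45% and 1.31% up, and 0.693%, 4.66% and 1.34% down. The fit lacking zebularine array 1 called 28 of 7938 genes up and 20 down. The members with a higher mean, 29 with all arrays, ran from 22 to 32 in the fits with fewer arrays. Their median difference, 0.73, ran from 0.25 without experiment 3 to 1.05 without experiment 2. Among alternatives with all arrays the median ran from 0.66 to 1.00. The members whose groups did not overlap, 10 with all arrays, ran from 11 to 21 with fewer arrays, where separation is easier. There were 18 lacking untreated array 2 and 20 lacking experiment 2. Of all 7938 tested genes, 740 lay above and 701 below with all arrays. Lacking untreated array 2 these were 1287 and 1486, and lacking experiment 2 they were 1729 and 1861. SAMD9 was called in 7 of 11 fits with all arrays. The mean difference of IFITM3 ran from -0.62 to 0.06 with fewer arrays, and was 0.056 with the block lacking experiment 1. The causes of these shifts were not tested. The longer promoter motif was in 12 member genes against 22 for the shorter. The signals are from 3 arrays a group, and members below 78.6 units cannot be ordered.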
